A study of Mus musculus with 10 samples.

Results

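The desmosome genes described here were 10 mouse genes, chosen by their names. They encode the plaque proteins desmoplakin (*Dsp*) and plakoglobin (*Jup*), the plakophilins *Pkp1*, *Pkp2*, *Pkp3* and *Pkp4*, and the desmosomal cadherins *Dsc2*, *Dsc3*, *Dsg2* and *Dsg3*. All 10 were among the 29268 genes listed, and 7 of them were among the 16993 genes with enough counts for a test. RNA-seq was done on whole uterus of female mice at the age of 4 months, with 5 HSD17B1TG mice and 5 WT mice and 1 library per mouse. HSD17B1TG mice are FVB/N mice of a heterozygous line in which a human *HSD17B1* cDNA, encoding the enzyme that makes estradiol from estrone, is expressed in all tissues from a CMV-enhanced chicken beta actin promoter. They do not cycle, whereas the study's methods state that WT uteri were taken at random phases of the cycle. The question of the comparison was which uterine transcripts differ before adenomyotic changes appear. The mice are called TG1 to TG5 and, for WT, WT1 to WT5, following the order of their records.

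Desmosomes are junctions that tie the keratin filaments of neighbouring epithelial cells together. Desmocollins and desmogleins span the gap between the cells, plakoglobin and the plakophilins bind their cytoplasmic tails, and desmoplakin links this plaque to the intermediate filaments. In the uterus desmosomes join the cells of the luminal and glandular epithelium, and in rodents the desmosomes of the luminal epithelium become fewer around the time of implantation. *Pkp4* (also called p0071) is found at adherens junctions as well as at desmosomes, and also outside epithelia.

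The promoters of 3 of the 10 genes were in the RefSeq table used (GRCm38.p6, 250 bases before to 50 bases after the start of transcription). They are shown because they were the ones in the table, and these 3 genes also had the highest mean RNA levels of the desmosome genes in both groups of mice. Capitals mark GC boxes (GGGCGG, searched on both strands, so that CCGCCC is marked as well, and matches may overlap).
Dsp, chr13:38151044-38151343, plus strand: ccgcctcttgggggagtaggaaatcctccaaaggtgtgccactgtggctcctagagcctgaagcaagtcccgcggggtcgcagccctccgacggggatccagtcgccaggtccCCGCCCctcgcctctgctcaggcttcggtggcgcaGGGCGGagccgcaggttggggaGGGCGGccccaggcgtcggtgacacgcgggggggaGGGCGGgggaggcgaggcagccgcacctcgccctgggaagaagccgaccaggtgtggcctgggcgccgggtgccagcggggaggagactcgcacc
Jup, chr11:100397741-100398040, minus strand: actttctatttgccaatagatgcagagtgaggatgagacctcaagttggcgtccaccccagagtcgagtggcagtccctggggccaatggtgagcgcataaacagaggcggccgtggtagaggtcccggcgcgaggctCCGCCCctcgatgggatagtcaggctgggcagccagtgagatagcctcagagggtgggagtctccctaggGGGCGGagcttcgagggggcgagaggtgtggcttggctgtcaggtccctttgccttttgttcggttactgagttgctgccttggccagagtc
Pkp4, chr2:59160600-59160899, plus strand: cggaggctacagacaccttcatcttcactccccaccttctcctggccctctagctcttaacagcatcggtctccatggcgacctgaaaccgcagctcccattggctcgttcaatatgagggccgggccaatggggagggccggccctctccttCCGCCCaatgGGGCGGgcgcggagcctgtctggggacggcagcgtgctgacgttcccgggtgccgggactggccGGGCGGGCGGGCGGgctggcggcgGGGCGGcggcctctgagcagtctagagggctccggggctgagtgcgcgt
The *Dsp* window held 4 GC boxes, the *Jup* window 2 and the *Pkp4* window 6, while 35.7% of all 32851 promoters of the table held at least 1. The GC content was 73% for *Dsp*, 60.7% for *Jup* and 69.3% for *Pkp4*, against a median of 52.7% over all promoters. A further *Pkp4* start (chr2:59161619-59161918) had a GC content of 68% and no GC box. None of the 4 windows held the estrogen receptor core GGTCA (found in 40.5% of all promoters), the AP-1 motif TGANTCA (7.81%), the grainyhead core CCGGTT (6.83%) or the TATA motif TATAA (24.9%). The core of KLF motifs, CACCC, was in all 4 windows (57.5% of all promoters), and the ETS core GGAA was in 3 of 4 (96% of all promoters). These matches describe letters in short windows only.

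The RNA of 7 desmosome genes was readily measured in uterus, and that of the other 3 was near the limit of counting. In FPKM, which are per gene length, the mean levels in WT ran in the order *Jup* (19.3), *Pkp4* (17.9), *Dsp* (15.8), *Dsc2* (8.74), *Pkp3* (7.02), *Dsg2* (5.22) and *Pkp2* (3.97). Many neighbours in this order were not separated. *Jup* exceeded *Pkp4* in 3 of 5 WT mice, *Pkp4* exceeded *Dsp* in 3, *Dsc2* exceeded *Pkp3* in 2 and *Dsg2* exceeded *Pkp2* in 3, whereas *Dsp* exceeded *Dsc2*, and *Pkp3* exceeded *Dsg2*, in all 5. In HSD17B1TG the order was *Jup* (38.5), *Dsp* (33.4), *Pkp4* (30.3), *Dsc2* (28.8), *Pkp3* (16), *Dsg2* (11) and *Pkp2* (8.38). There *Pkp3* exceeded *Dsg2* in all 5 mice, and the other neighbours kept their order in 3 or 4 of 5. Summed over the 10 genes, FPKM were 86.0, 211, 203, 127 and 206 in TG1 to TG5, and the WT1 to WT5 sums were 98.2, 62.5, 46.2, 142 and 41.9. The sum was therefore lower in TG1 than in WT1 and WT4, and lower in TG4 than in WT4.

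**Figure D1:**
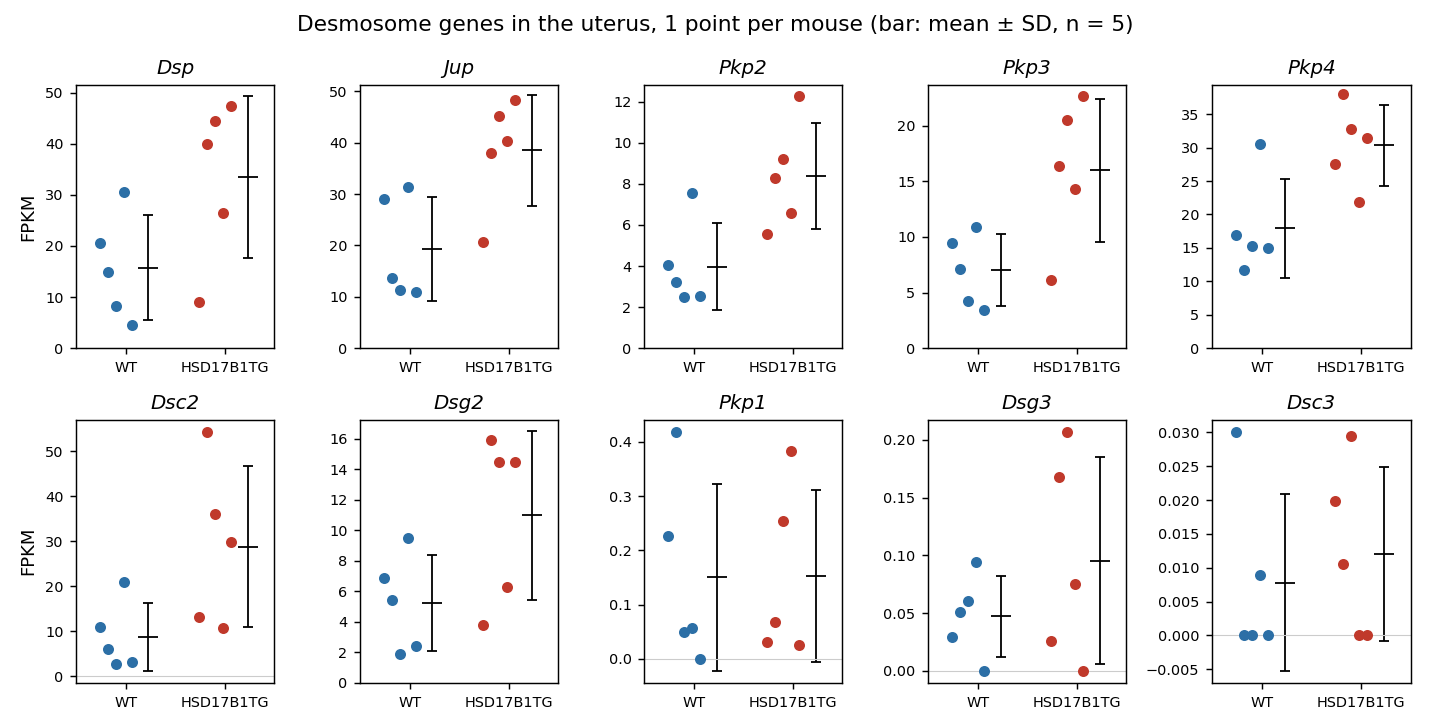
FPKM of each of the 10 desmosome genes in WT (blue) and HSD17B1TG (red) uterus, 1 point per mouse, with the mean and SD of 5 mice as a bar beside the points and a linear axis of its own for each gene. The means of *Dsp*, *Jup*, *Pkp2*, *Pkp3*, *Pkp4*, *Dsc2* and *Dsg2* were higher in HSD17B1TG, and in each of these 7 panels the points of the groups overlap.

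All 7 desmosome genes tested had a higher mean in HSD17B1TG uterus, by a log2 fold change of 0.76 to 1.72 (median 1.08), and none of the 7 was called by edgeR. A call needed an adjusted p under 0.05 (over all genes tested), more than a 2-fold difference and, in at least 1 group, an average above 1 FPKM, and 2.16% of all genes tested were called higher by edgeR. Over all genes tested the median log2 fold change was 0.00, with 50.2% of genes higher. Before adjustment, *Jup*, *Pkp2*, *Pkp3*, *Pkp4* and *Dsc2*, 5 of the 7, had a p under 0.05 and a higher mean, against 14.7% of all genes tested. The 7 genes are not independent observations, because they were measured in the same 10 mice. The groups overlapped in FPKM for all 7 genes, while for 4.04% of all genes tested every HSD17B1TG mouse lay above every WT mouse. With DESeq2, which called 4.48% of the genes it tested higher, 3 of the 7 were called, namely *Pkp2* (adjusted p = 0.0252), *Pkp3* (0.0338) and *Dsc2* (0.0343). By limma-voom none of the 7 was called, and their smallest adjusted p was 0.0604.

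Desmoplakin, the link to keratin filaments, is encoded by *Dsp* (ENSMUSG00000054889, chromosome 13, 38151294 to 38198577, plus strand, GRCm38). Its level was 9.01, 39.9, 44.4, 26.4 and 47.4 FPKM in TG1 to TG5 and 20.6, 14.9, 8.30, 30.6 and 4.44 FPKM in WT1 to WT5. TG2, TG3 and TG5 lay above every WT mouse, TG1 lay above WT3 and WT5 alone, and WT4 lay above TG4. The means were 33.4 ± 15.8 (SD, n = 5) and 15.8 ± 10.3 FPKM, and the log2 fold change was 1.08 (SE 0.53, edgeR adjusted p = 0.226). The exact permutation test (2-sided, log2(FPKM + 1)) gave p = 0.119 for *Dsp*. The annotation places a provisional gene model, *Gm10129*, on the opposite strand of *Dsp*, and the strand setting of the counting is not given in the sources used here.

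Plakoglobin binds both desmosomal and classical cadherins, and its gene *Jup* (ENSMUSG00000001552) lies on the minus strand of chromosome 11, from 100368958 to 100397763. *Jup* FPKM were 20.6, 38.0, 45.1, 40.3 and 48.3 in TG1 to TG5 and 29.1, 13.6, 11.3, 31.4 and 10.9 in WT1 to WT5. All HSD17B1TG mice but TG1 were above all WT mice. WT1 and WT4 were well above the other 3 WT mice. The mean was 38.5 ± 10.7 FPKM in HSD17B1TG and 19.3 ± 10.1 in WT, with a log2 fold change of 1.00 (SE 0.35, edgeR adjusted p = 0.104). The exact permutation p of 0.0397 became 0.182 after adjustment over all genes tested. The ratio of *Jup* to its relative *Ctnnb1*, which encodes the beta-catenin of adherens junctions, was 0.179, 0.250, 0.266, 0.298 and 0.347 in TG1 to TG5 and 0.233, 0.138, 0.123, 0.223 and 0.127 in WT1 to WT5. TG2 to TG5 exceeded all WT mice in this ratio. The ratio of *Jup* to *Dsp*, in contrast, was 1.36 ± 0.57 in HSD17B1TG and 1.43 ± 0.61 in WT, with 0 HSD17B1TG mice above all WT mice.

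Of the plakophilins, which bind desmoplakin and cluster the cadherins, *Pkp4* was the most abundant. *Pkp4* (ENSMUSG00000026991, chromosome 2, 59160850 to 59355208, plus strand) was at 27.6, 38.0, 32.8, 21.8 and 31.5 FPKM in TG1 to TG5 and at 16.9, 11.7, 15.3, 30.6 and 15 FPKM in WT1 to WT5. The WT mice were close to each other except for WT4, which lay above TG1 and TG4. *Pkp4* had the smallest log2 fold change of the 7 genes (0.76, SE 0.25, edgeR adjusted p = 0.0889), from means of 30.3 ± 6.07 and 17.9 ± 7.37 FPKM. Without WT4 the difference was 1.04 with an adjusted p of 0.00872, in a fit that called 5 of the 7 desmosome genes and 5.12% of all genes tested higher. The exact permutation test with all mice gave p = 0.0238 for *Pkp4*, and 0.150 after adjustment over all genes tested.

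*Pkp3* (ENSMUSG00000054065, chromosome 7, 141078218 to 141090510, plus strand) encodes a plakophilin of simple and stratified epithelia. Its levels were 6.10, 16.4, 20.5, 14.3 and 22.7 FPKM in TG1 to TG5 and 9.41, 7.13, 4.22, 10.9 and 3.43 FPKM in WT1 to WT5. TG1 lay within the WT range, and the other 4 HSD17B1TG mice lay above it. The means were 16 ± 6.43 and 7.02 ± 3.22 FPKM and the log2 fold change was 1.19 (SE 0.39, edgeR adjusted p = 0.0868). *Pkp2*, the plakophilin shared by simple epithelia and heart muscle (ENSMUSG00000041957, chromosome 16, 16213318 to 16272712, plus strand), was at 5.58, 8.29, 9.21, 6.58 and 12.3 FPKM in TG1 to TG5 and at 4.03, 3.23, 2.48, 7.57 and 2.56 FPKM in WT1 to WT5. Here WT4 alone reached into the HSD17B1TG range, above TG1 and TG4. *Pkp2* had the smallest unadjusted p of the 7 genes (0.00763), with a log2 fold change of 1.08 (SE 0.33, edgeR adjusted p = 0.0716) and means of 8.38 ± 2.58 and 3.97 ± 2.11 FPKM.

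The desmosomal cadherins lie in 1 cluster on chromosome 18. *Dsc2* (ENSMUSG00000024331, 20030633 to 20059554, minus strand), the desmocollin of simple epithelia, had the largest log2 fold change of the 7 genes and the widest range by fold in WT. Its FPKM were 13.2, 54.3, 36.0, 10.6 and 29.7 in TG1 to TG5 and 11, 6.01, 2.67, 20.9 and 3.10 in WT1 to WT5. TG2, TG3 and TG5 exceeded every WT mouse, while TG1 and TG4 lay below WT4, and TG4 also below WT1. With means of 28.8 ± 17.8 and 8.74 ± 7.56 FPKM, the log2 fold change was 1.72 (SE 0.62, edgeR adjusted p = 0.112). *Dsg2* (ENSMUSG00000044393, 20558074 to 20604521, plus strand), the desmoglein found in all tissues with desmosomes, was at 3.80, 15.9, 14.5, 6.26 and 14.5 FPKM in TG1 to TG5 and at 6.85, 5.45, 1.87, 9.48 and 2.43 FPKM in WT1 to WT5. TG1 and TG4 again lay within the WT range. The means of *Dsg2* were 11 ± 5.53 and 5.22 ± 3.16 FPKM and its log2 fold change was 1.07 (SE 0.50, edgeR adjusted p = 0.205). An antisense gene, *Gm16090*, overlaps *Dsg2*.

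The 3 desmosome genes known from stratified epithelia were hardly detected and were not tested with the others. *Pkp1* (ENSMUSG00000026413, chromosome 1, 135871395 to 135919207, minus strand) had 66 counts over the HSD17B1TG mice and 78 over the WT mice, with at most 0.419 FPKM in a mouse. *Dsg3* (ENSMUSG00000056632, chromosome 18, 20510304 to 20541310, plus strand) had 35 and 19 counts and at most 0.207 FPKM. *Dsc3* (ENSMUSG00000059898, chromosome 18, 19960930 to 20002351, minus strand) had 6 and 5 counts in all, in 5 of the 10 mice. Thus all 3 were at trace levels in both groups. In a fit of all genes without the filter on low counts, the adjusted p was 0.989 for *Pkp1*, 0.875 for *Dsc3* and 0.611 for *Dsg3*, and at this depth no difference was detectable. *Gm36938* overlaps *Pkp1* on the same strand, so the few *Pkp1* counts are uncertain.

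The makeup of the plakophilins and cadherins could be compared as shares of FPKM within each family. *Pkp4* took 56.2% ± 9.20 (SD, n = 5) of plakophilin FPKM in HSD17B1TG and 62.1% ± 8.49 in WT, *Pkp3* took 28.3% ± 7.83 and 24.0% ± 6.92, and *Pkp2* took 15.2% ± 1.98 and 13.3% ± 1.66. These differences were smaller than the spread between mice or close to it. The share of *Pkp4* was highest in TG1, WT3 and WT5, the 3 mice with the lowest epithelium marker mean. *Dsc2* made up 77.5%, 77.2%, 70.9%, 62.7% and 67.2% of cadherin FPKM in TG1 to TG5 and 61.5%, 52.2%, 58.0%, 68.5% and 56.1% in WT1 to WT5, and nearly all of the remainder was *Dsg2*. The share of *Dsc2* was higher in all HSD17B1TG mice than in WT1, WT2, WT3 and WT5, and WT4 lay above TG4 and TG5. Expressed as a ratio, *Dsc2* to *Dsg2* was 2.63 ± 0.80 in HSD17B1TG and 1.52 ± 0.42 in WT, with 3 of 5 HSD17B1TG mice above all WT mice. The ratio of *Pkp3* to *Dsp* was 0.514 ± 0.102 in HSD17B1TG and 0.514 ± 0.155 in WT. No test was made of the shares and ratios.

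**Figure D2:**
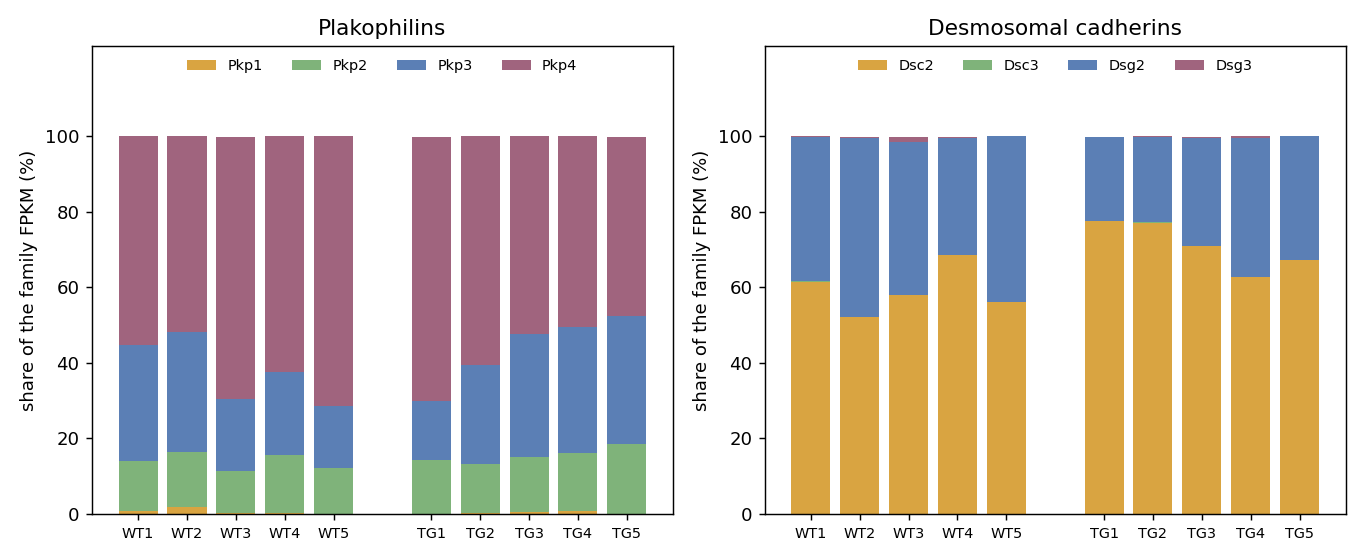
Share of summed FPKM in percent (vertical axis, from 0) taken by each plakophilin (left) and each desmosomal cadherin (right), with 1 stacked bar per mouse. *Pkp4* took 47.4% to 71.4% of the plakophilin FPKM in every mouse, and *Dsc2* took 52.2% to 77.5% of the cadherin FPKM, while *Pkp1*, *Dsc3* and *Dsg3* are barely visible.

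*Dsp*, *Dsc2* and *Dsg2* varied more between mice of the same genotype than the other 4 desmosome genes tested. In WT the highest level was 6.89-fold the lowest for *Dsp*, 7.83-fold for *Dsc2* and 5.08-fold for *Dsg2*, but 2.62-fold for *Pkp4*. The SD of log2 CPM over the WT mice was at percentile 92.6 of all genes tested for *Dsc2*, 89.9 for *Dsp* and 87.6 for *Dsg2*, and it was lowest for *Pkp4*, at percentile 63.8. In HSD17B1TG the SDs lay between percentile 32.1 (*Pkp4*) and percentile 86.7 (*Dsp*). WT4 was the highest WT mouse for 7 of 7 genes. TG1 was the lowest HSD17B1TG mouse for 5 of 7, and TG4 was the lowest for *Pkp4* and *Dsc2*. Without TG1, *Pkp2* and *Pkp3* were called by edgeR (adjusted p = 0.0466 and 0.0291), and without WT4, *Jup*, *Pkp2*, *Pkp3*, *Pkp4* and *Dsc2* were (adjusted p from 0.00872 to 0.0481). The share of all genes tested that was called higher was then 4.42% without TG1 and 5.12% without WT4, and genes called in either direction went from 721 to 1338 and 1554. Without TG3 there were 895, and without any 1 of the other 7 mice between 65 and 245, with no desmosome gene called. *Dsp* and *Dsg2* were not called with either mouse left out. The cycle phase of the WT mice is not labelled, and its part in their spread was not tested.

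The general epithelium markers moved with the desmosome genes. The mean log2 CPM of 12 epithelium markers (*Epcam*, *Cdh1*, *Krt7*, *Krt8*, *Krt18*, *Krt19*, *Cldn3*, *Cldn4*, *Cldn7*, *Esrp1*, *Grhl2* and *Spint2*, none of them a desmosome gene) was 6.96, 8.49, 8.62, 8.37 and 9.11 in TG1 to TG5 and 7.55, 7.03, 6.40, 7.89 and 6.41 in WT1 to WT5. TG1 was the lowest HSD17B1TG mouse and WT4 the highest WT mouse by this mean as well. It was higher by 1.25 in HSD17B1TG (two-sided exact permutation test, p = 0.0397). All 12 markers had a higher mean, and 1 of them (*Spint2*) was called higher (2.16% of all genes tested were). By edgeR, 9 of the 12 had an unadjusted p under 0.05 and a higher mean, against 14.7% of all genes tested. The median log2 fold change of the markers was 1.24, against 1.08 for the desmosome genes. In whole tissue, more epithelial cells and more RNA per epithelial cell cannot be told apart.

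**Figure D3:**
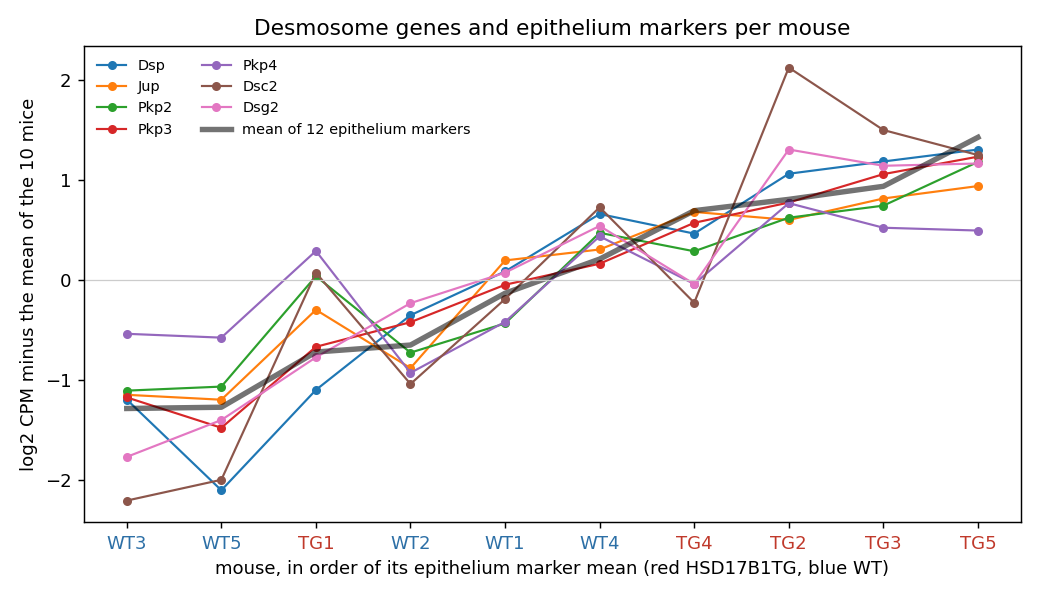
Log2 CPM minus the mean of the 10 mice (vertical axis) for the 7 desmosome genes tested (thin lines) and for the mean of 12 epithelium markers (thick grey line), with the mice ordered along the horizontal axis by that marker mean. The lines are low in WT3 and WT5 and high in TG2, TG3 and TG5, 5 of the 7 fall from WT4 to TG4, *Pkp3* stays closest to the grey line and *Dsc2* and *Pkp4* depart from it most, and TG1 stands between WT5 and WT2.

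Relative to the epithelium marker mean, 6 of the 7 genes were lower on average in HSD17B1TG and *Dsc2* was higher, each within the overlap of the groups. The log2 CPM of *Dsp* minus the marker mean was lower by 0.09 in HSD17B1TG, and the exact permutation p was 0.762. *Pkp3* had the tightest relation to the markers, with an SD of this difference of 0.13 in HSD17B1TG and 0.17 in WT and a group difference of −0.07 (exact permutation p = 0.468). For *Dsc2* the group difference was 0.63 (p = 0.206 by the exact permutation test) and for *Pkp4* it was −0.44 (p = 0.310 by the same exact test). For *Jup*, *Pkp2* and *Dsg2* it lay between −0.16 and −0.11.

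With the marker mean as a covariate in edgeR, none of the 7 genes had an unadjusted p under 0.05, against 11% of all genes tested in either direction. The log2 fold change was then 0.56 for *Dsc2* (SE 0.49), 0.42 for *Pkp4* (SE 0.28), 0.31 for *Pkp2* (SE 0.22) and 0.09 for *Jup* (SE 0.20), and it was −0.03 for *Pkp3* (SE 0.16), −0.31 for *Dsg2* (SE 0.32) and −0.51 for *Dsp* (SE 0.27). The direction thus turned for *Pkp3*, *Dsg2* and *Dsp*. *Pkp4*, *Pkp2* and *Jup* stayed positive in this fit, whereas their levels minus the marker mean were lower in HSD17B1TG. In this fit the SE was smaller than without the covariate for 6 of the 7 genes and larger for *Pkp4*. The marker mean itself differed with the genotype, and of all genes tested 0 had an adjusted p under 0.05 by edgeR with it (smallest adjusted p = 0.0678), with 1874 at an unadjusted p under 0.05.

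**Figure D4:**
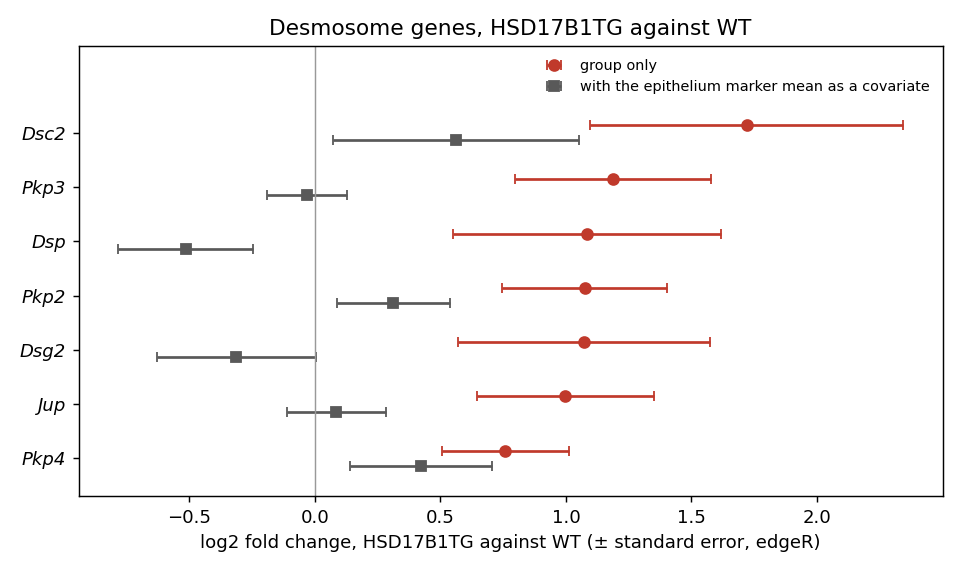
Log2 fold change, HSD17B1TG against WT, with its standard error (edgeR, 5 mice per group) for the 7 desmosome genes tested, from the fit on genotype (red circles) and from the fit with the epithelium marker mean as a covariate (grey squares). The red points lie between 0.76 and 1.72, and the grey points lie on both sides of 0, from −0.51 to 0.56.

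Markers of other tissue layers were also set beside the desmosome genes. Summed FPKM of 8 smooth muscle markers were 6690 in TG1 and 5280 in WT4, and between 330 and 2820 in the other 8 mice, so that the mice with the most smooth muscle RNA were the HSD17B1TG mouse with the lowest *Dsp* and the WT mouse with the highest *Dsp*. All 8 smooth muscle markers had a higher mean in HSD17B1TG and none was called. Of 8 stromal markers 5 had a lower mean and 3 a higher one, 3 (*Pdgfra*, *Hoxa11* and *Col3a1*) were called lower (2.08% of all genes tested were) and none higher, and the sums ran from 520 to 1890 in HSD17B1TG and from 1650 to 1980 in WT. All 8 endothelial markers had a lower mean and none was called. Of 8 leucocyte markers 7 had a lower mean and 1 (*Laptm5*) was called higher (2.16% of all genes tested were). Of 14 markers of stratified squamous epithelium 9 were tested, 7 had a higher mean (median log2 fold change 1.28), 3 had an unadjusted p under 0.05 upward (14.7% of all genes tested) and 1 (*Krt13*) was called higher (2.16% of all genes tested). Their sums were 11.7, 51.7, 67.7, 49.0 and 20.2 in TG1 to TG5 and 8.64 to 16.6 in WT. *Trp63*, which defines squamous basal cells and is named here for that, was at a low level, 0.10 ± 0.069 FPKM in HSD17B1TG and 0.145 ± 0.082 in WT (edgeR adjusted p = 0.577). It was 1 of the 2 tested markers of this list with a lower mean. The basal-cell keratins had higher means in HSD17B1TG than in WT and were not called. These were *Krt5* (6.94 against 1.23 FPKM, edgeR adjusted p = 0.236), *Krt14* (2.01 against 0.645, 0.334) and *Krt15* (4.33 against 1.82, 0.522). Oviduct markers summed to at most 6.99 FPKM in any mouse. The part of these layers in the desmosome values was not tested.

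The genes whose deviations from the group means followed those of *Dsp* most closely over the 10 mice were *Pkp3* (Pearson r = 0.985), *Esrp1* (0.984), *Cdh1* (0.984), *Naip2* (0.983) and *Bspry* (0.979), out of 14314 protein-coding genes. *Esrp1* and *Cdh1* are also among the 12 epithelium markers. Spearman's rho was 1 for *Pkp3* and *Cdh1* and 0.952 for the other 3, and r was between 0.922 and 0.967 without the 2 mice farthest from the median of *Dsp*. These are the highest of many values and are given without a test, and the mice share their library and tissue composition across genes. *Dsg2* ranked 118th by r (0.923), *Jup* 226th (0.903), *Pkp2* 480th (0.855), *Dsc2* 700th (0.822) and *Pkp4* 3144th (0.521). By Spearman's rho the order differed, with 0.976 for *Pkp2*, 0.952 for *Jup*, 0.903 for *Dsg2*, 0.782 for *Dsc2* and 0.661 for *Pkp4*. Without the 2 farthest mice r was 0.713 for *Pkp4* and between 0.862 and 0.956 for the others. *Pkp4* was therefore the desmosome gene that followed *Dsp* least. The ratio of *Dsp* to *Cdh1*, the E-cadherin of adherens junctions, was 0.264 ± 0.055 in HSD17B1TG and 0.275 ± 0.057 in WT.

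Other genes of the junction and its partners were taken from 5 lists. Of 11 further desmosome and cell envelope plaque genes, 7 were tested, and all 7 had a higher mean in HSD17B1TG (median log2 fold change 1.03). None was called, where 2.16% of all genes tested were called higher. An unadjusted p under 0.05 was found for 2 of the 7, against 14.7% of all genes tested that were higher with such a p. The smallest p was that of the desmoglein *Dsg1c* (log2 fold change 1.68, edgeR adjusted p = 0.156), at 0.266 ± 0.193 FPKM in HSD17B1TG and 0.0822 ± 0.0350 in WT. *Perp*, a membrane protein needed for desmosome assembly and named here after its values were seen for its high level, was at 74.2 ± 33 and 35.0 ± 26.3 FPKM (adjusted p = 0.220). In this list, as among the desmosome genes, the means of all 7 genes tested were higher.

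Of 14 intermediate filament genes 12 were tested, and 11 of them had a higher mean (median log2 fold change 1.34). *Krt13*, a keratin of stratified internal epithelia, was called higher, at 1.44, 14.5, 16.4, 10.4 and 4.52 FPKM in TG1 to TG5 and at most 0.925 in WT (log2 fold change 4.3, SE 1.06, edgeR adjusted p = 0.0426). *Krt1* had an adjusted p of 0.0227 with a log2 fold change of 2.73, but its mean stayed below 1 FPKM in both groups. *Vim*, the filament protein of mesenchymal cells, was the 1 gene of the 12 tested with a lower mean (log2 fold change −1.37, adjusted p = 0.102). Of the 13 adherens junction genes 12 were tested and 10 had a higher mean (median 0.60). *Nectin4* was called higher (20.2 ± 8.14 against 4.74 ± 3.65 FPKM, log2 fold change 2.09, adjusted p = 0.0446) and *Nectin3* lower (2.27 ± 0.197 against 5.05 ± 1.62 FPKM, log2 fold change −1.16, adjusted p = 0.0219). Nectins are adhesion receptors of adherens junctions. Over all genes tested, 2.16% were called higher, as were *Krt13* and *Nectin4*, and 2.08% were called lower, as was *Nectin3*. *Cdh1* (log2 fold change 1.2, adjusted p = 0.103) was close to the desmosome genes in size and was not called.

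Among 13 genes for the assembly and shedding of desmosomal proteins, 11 were tested and 7 had a higher mean (median log2 fold change 0.10). The tyrosine kinase *Src* had an adjusted p of 0.0364 with a log2 fold change of 0.83, below the limit on fold, at 25.4 ± 3.64 FPKM in HSD17B1TG and 14.3 ± 4.22 in WT. The receptor *Egfr* had the smallest p of those with a lower mean (log2 fold change −0.78, adjusted p = 0.0832). All 13 transcription regulators of epithelial identity were tested, of which 8 had a higher mean (median 0.78). *Snai1* and *Zeb2*, known as repressors of epithelial junction genes, were called lower (2 of 13, against 2.08% of all genes tested). *Snai1* was at 3.06 ± 1.35 FPKM in HSD17B1TG and 13.2 ± 7.48 in WT (log2 fold change −2.12, adjusted p = 0.0376). *Zeb2* was at 2.76 ± 0.835 and 5.76 ± 2.28 FPKM (log2 fold change −1.06, adjusted p = 0.0471). *Grhl3*, a grainyhead factor of surface epithelia, had a log2 fold change of 3.92 with an adjusted p of 0.0503. With the epithelium marker mean as a covariate in edgeR, 0 of all genes tested had an adjusted p under 0.05 (smallest adjusted p = 0.0678). The same therefore held for the genes named from the 5 lists, and this fit shows nothing particular to them.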

How the data were processed

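Total RNA of the uterus of 10 mice, 1 library each, was sequenced by the authors as paired-end reads of 150 bp and mapped with HISAT2 2.0.5, using GRCm38 and Ensembl 94 gene models. Which program did the counting, and how it dealt with strand and with multiply mapped reads, is not given in the sources used here. The deposited table gives raw counts per gene and FPKM for each mouse. Each mouse had between 14817228 and 23271988 counts in all, so that 3 counts correspond to 0.129 to 0.202 CPM (counts scaled to the library total), a limit that covers counting error only. The table also holds 10 columns of size-factor-scaled values, group means and the authors' own fold changes and p-values from DESeq2, and further tables hold a subset of genes and enriched terms. None of these was used.

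Groups follow the labelled genotype. No litter, batch or date is labelled. The transgene is of human sequence, and no check of it was made. The quasi-likelihood test of edgeR 4.0.16 (R 4.3.3) was run on the counts after filterByExpr and TMM normalization, and p-values were adjusted by Benjamini-Hochberg across all 16993 genes. Called genes had an adjusted p under 0.05, differed by more than 2-fold and averaged above 1 FPKM in at least 1 group. For single genes an exact permutation test (2-sided) was also run on log2(FPKM + 1), for which the 252 ways of assigning the mice allow a p of 0.00794 at the smallest. Log2 CPM used a prior count of 2. Alternatives were DESeq2 1.42.0, limma 3.58.1 (voom, and log2(FPKM + 1) or log2(FPKM + 0.1)), other normalizations and filters, the epithelium marker mean as a covariate, and each mouse left out in turn. *Epcam* as a covariate was added after the data were seen. The genes named were the 10 desmosome genes, the genes of each list with an adjusted p under 0.05 or the smallest p in either direction, and the 5 genes most like *Dsp*. *Perp*, *Ctnnb1*, *Trp63*, *Krt5*, *Krt14*, *Krt15* and the called genes of the marker lists were named outside this rule, after their values were seen. The desmosome genes and all lists were chosen with earlier results of these data known. Sequences are from RefSeq, and overlapping genes from GENCODE of the same build.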

Additional observations from a re-analysis of the deposited data

Results flagged for a closer look

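The FPKM of *Pkp4* in WT4 (30.6) stood apart from those of the other 4 WT mice (11.7 to 16.9), with a gap to the nearest of them of 0.723 of the whole range of the group, above Dixon's 95% critical value of 0.71 for 5 samples. It was the 1 such case in 26 groups of values tested, and chance gives about 1 in 20. WT4 was also the highest WT mouse for the other 6 desmosome genes tested and for the epithelium marker mean (7.89), and it had the highest smooth muscle marker sum in WT (5280).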

How the results depend on the processing

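None of the 7 desmosome genes was called, and none had an adjusted p under 0.05, by edgeR with other normalizations or filters, by limma or with either covariate. DESeq2 called 3 of them and gave 3 an adjusted p under 0.05, with 1597 genes called in all. With each mouse left out in turn, 0 to 5 desmosome genes were called, 0 to 5 had an adjusted p under 0.05, and 0 to 2 had groups without overlap, the last being *Jup* and *Pkp3* without TG1 (9.13% of all genes tested were then higher in every HSD17B1TG mouse) and *Pkp2* and *Pkp4* without WT4 (8.51%). The genes called over the whole table numbered 721, or 65 to 1554 with 1 mouse left out, 0 with the epithelium marker mean and 0 with *Epcam* as a covariate, and 580 to 813 under the remaining settings other than DESeq2. The log2 fold change turned for *Dsp* (−0.51 with the marker mean, −0.34 with *Epcam*), *Dsg2* (−0.31 and −0.22) and *Pkp3* (−0.030 with the marker mean). The cause of these changes was not tested. In all fits without a covariate the log2 fold change of each of the 7 genes was at least 0.61, and with levels minus the marker mean 6 of the 7 were lower in HSD17B1TG, *Pkp4* by the most (−0.44). No paired analysis was possible because the labels do not pair mice of the 2 groups.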
